A study of Mus musculus with 11 samples.

Results

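The villus tip program genes are 7 genes named by symbol, Ada, Nt5e, Slc28a2, Klf4, Egfr, Creb3l3 and Enpp3, and all 7 were found among the 11366 genes of the deposited expression table. They were read in epithelial cells of the mouse small intestine in 11 RNA-seq libraries. SFB libraries (n = 4) came from mice on standard chow that were colonized with SFB, read here as segmented filamentous bacteria, commensals that attach to the ileal epithelium. NFF libraries (n = 4) came from mice on a diet low in fermentable fiber, and Control libraries (n = 3) from mice on standard chow with no treatment. All mice were labelled WT, and all cells were sorted as live, EpCAM+, CD45-, CD31- and CD44-, which keeps epithelial cells and removes leukocytes, endothelial cells and many crypt cells. The labels state neither age and sex nor whether each library came from its own animal. The p-values therefore reflect library-to-library spread, which may be technical.

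Enterocytes are born in the crypt, climb the villus in a few days and are shed at its tip, and on the way they change which genes they express. Tip cells are known for a set of proteins that handle purines. ENPP3 cleaves extracellular nucleotides, and NT5E (CD73) turns AMP into adenosine outside the cell. ADA turns adenosine into inosine, and SLC28A2 (CNT2) brings purine nucleosides into the cell with sodium. KLF4 is a zinc finger transcription factor of cells that have left the cycle and is also needed by goblet cells, CREB3L3 (CREB-H) is an endoplasmic reticulum factor that is cut free to drive lipid genes, and EGFR is the receptor of epidermal growth factor and its relatives.

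Epcam stood at 494 to 670 RPKM in SFB, 586 to 648 in NFF and 489 to 615 in Control, where RPKM is reads per kilobase of gene model, scaled to the library's total reads. Ptprc, which encodes CD45, was at 0.247 to 1.35 RPKM in SFB, 1.40 to 2.48 in NFF and 0.751 to 2.25 in Control. Cd44, the gene of the marker sorted against, was at 1.17 to 2.29 RPKM in SFB, 0.333 to 0.646 in NFF and 0.457 to 0.969 in Control, so every SFB library was above all others, and the part of this in the differences below was not tested. Of 18 leukocyte markers 3 were in the table, of 9 stromal markers 1 and of 8 endothelial markers 0. RPKM summed to 237248 to 302661 per library, and the read depth behind these values was unknown. Same-group libraries differed widely: SFB 4, SFB 2 and Control 2 lay farthest from their group means, at a root mean square distance of 0.43, 0.38 and 0.35 in log2 units. Control 2 had the highest mean level of the proximal small intestine markers (6.09 on the log2(RPKM + 1) scale, against 3.48 to 4.84 in the other libraries) and the lowest of the distal markers (5.25, against 6.22 to 7.91). SFB 4 had the highest level of crypt and proliferation markers (4.30, against 1.88 to 3.49) and the lowest of mid villus absorptive genes (5.45, against 6.46 to 7.56). In bulk RNA, fewer cells of a kind and less RNA per cell cannot be told apart.

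Levels spanned more than an order of magnitude between the members. By mean RPKM over the 11 libraries, which is a level per gene length, Ada (44.6) and Creb3l3 (44.2) led, followed by Klf4 (28.9), Enpp3 (11.4), Slc28a2 (5.29), Nt5e (4.28) and Egfr (2.94). Ada stood above 91.0% of the genes in the table and Creb3l3 above 90.9%, whereas Egfr stood above 32.4%. The means of Ada and Creb3l3 lay close together beside their spread between libraries, as did those of Slc28a2 and Nt5e. The order within these pairs was not tested. From the lowest to the highest library the level changed 77.8-fold for Nt5e, 22.5-fold for Creb3l3, 15.8-fold for Ada and 14.4-fold for Enpp3. The same ratio was 6.67 for Slc28a2, 4.75 for Klf4 and 1.89 for Egfr.

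**Figure D1:**
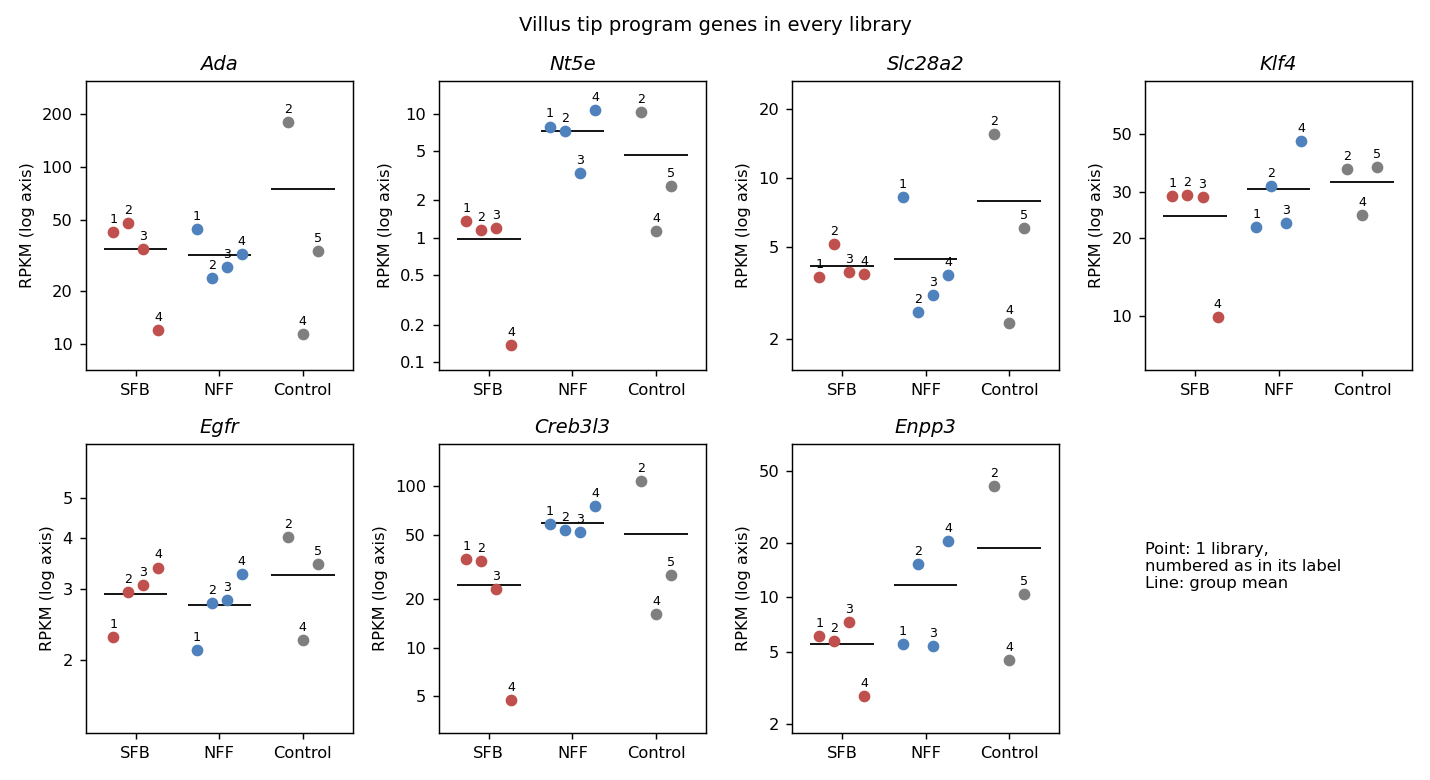
RPKM of the 7 villus tip program genes on log axes in the SFB, NFF and Control libraries; each point is 1 library, numbered as in its label, and the line is the group mean. Control 2 is the highest library for 5 of the 7 genes, SFB 4 the lowest for 4, and Nt5e and Creb3l3 are lower in every SFB library than in every NFF library.

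SFB against NFF sets colonized mice on chow beside mice on the low-fiber diet, so colonization and diet both differ. It is also the direct test of whether the SFB and NFF differences from Control differ from each other. Nt5e fell in SFB, Creb3l3 was lower in every SFB library without passing the test, and the other 5 genes overlapped between the groups. Limma with Benjamini-Hochberg adjustment over 10482 tested genes called 440 genes lower in SFB (4.20%) and 329 higher (3.14%), or 7.34% in all, and 25.7% had an unadjusted p under 0.05. The 1 of 7 members called lower is to be read against that background.

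Nt5e, whose product makes adenosine outside the cell (chromosome 9, 88327197 to 88372092, plus strand, GRCm38), stood at 1.38, 1.16, 1.21 and 0.138 RPKM in SFB 1 to SFB 4. It stood at 7.86, 7.17, 3.35 and 10.7 RPKM in NFF 1 to NFF 4, and at 10.3, 1.14 and 2.63 in Control 2, Control 4 and Control 5. Every SFB library was below every NFF library, and SFB 4 was far below the other SFB libraries, while the Control libraries ran across the range of both groups. The mean was 0.971 ± 0.563 RPKM in SFB and 7.28 ± 3.04 in NFF (SD, n = 4 each), a ratio of 0.133. On the log2(RPKM + 1) scale, which understates changes of genes near 1 RPKM, Nt5e fell by 2.04 ± 0.46 (SE; limma adjusted p = 0.0243, 95% interval of the difference -3.05 to -1.03). The call was lost without NFF 1 (-1.98, limma adjusted p = 0.055), NFF 2 (-2.02, adjusted p = 0.0746), NFF 4 (-1.84, adjusted p = 0.0804) or SFB 3 (-2.11, adjusted p = 0.0502). It held without SFB 4 (-1.80, adjusted p = 0.0466) and without Control 2, SFB 2 and SFB 4 together (-1.77, adjusted p = 0.0168).

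Creb3l3, the lipid-gene transcription factor (chromosome 10, 81084324 to 81098874, minus strand), stood at 35.2, 34.2, 23.0 and 4.76 RPKM in SFB 1 to SFB 4. In NFF 1 to NFF 4 it stood at 57.7, 53.0, 52.0 and 74.6 RPKM, and in Control 2, Control 4 and Control 5 at 107, 16.1 and 28.3. The NFF libraries were close together and all above the SFB libraries, with SFB 4 the lowest of the 11. The log2 difference was -1.54 ± 0.61 (SE; 95% interval -2.88 to -0.21) and was not called (limma adjusted p = 0.141). Without SFB 4 it was -0.93 (adjusted p = 0.249), and without Control 2, SFB 2 and SFB 4 together it was -1.02 and was called (adjusted p = 0.0325). These 2 of 7 genes were the members whose SFB libraries lay wholly below the NFF libraries, a pattern that 9.91% of all tested genes showed, beside 10.1% that lay wholly above.

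Nt5e and Creb3l3 are shown here by the RefSeq promoter windows of GRCm38.p6, which run from 250 bases before to 50 bases after an annotated start, since these members separated the same groups. Capitals mark matches on either strand to CACCC for the KLF family, TGACGT for the CREB family, TGANTCA for AP-1, CAAAGTC for HNF4, AGATAA for the family of GATA factors and TTTATNG for CDX factors. No matches overlapped in these windows.
Nt5e, chr9:88327359-88327658, plus strand: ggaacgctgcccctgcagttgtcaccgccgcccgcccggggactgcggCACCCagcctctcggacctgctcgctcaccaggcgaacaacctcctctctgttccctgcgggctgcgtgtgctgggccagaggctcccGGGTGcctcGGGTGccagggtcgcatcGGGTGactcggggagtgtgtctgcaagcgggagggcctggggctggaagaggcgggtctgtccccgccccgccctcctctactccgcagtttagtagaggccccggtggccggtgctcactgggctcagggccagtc
Creb3l3, upstream start, chr10:81098823-81099122, minus strand: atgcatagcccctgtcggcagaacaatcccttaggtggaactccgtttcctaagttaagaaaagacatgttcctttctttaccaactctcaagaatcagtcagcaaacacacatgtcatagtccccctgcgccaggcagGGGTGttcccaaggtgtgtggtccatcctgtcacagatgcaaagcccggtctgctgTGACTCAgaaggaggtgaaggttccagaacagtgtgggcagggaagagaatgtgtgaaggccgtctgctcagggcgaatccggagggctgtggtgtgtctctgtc
Creb3l3, downstream start, chr10:81092542-81092841, minus strand: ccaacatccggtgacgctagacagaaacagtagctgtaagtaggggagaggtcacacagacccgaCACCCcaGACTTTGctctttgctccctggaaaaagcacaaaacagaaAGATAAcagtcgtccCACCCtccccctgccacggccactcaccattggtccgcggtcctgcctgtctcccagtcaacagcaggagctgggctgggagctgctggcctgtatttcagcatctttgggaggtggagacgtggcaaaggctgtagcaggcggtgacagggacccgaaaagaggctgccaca
The Nt5e window held 4 matches to CACCC, the letters that KLF proteins recognise, in 71.0% G and C. The upstream Creb3l3 window held 1 match to CACCC and 1 to TGANTCA, and the downstream window held 2 to CACCC, 1 to CAAAGTC and 1 to AGATAA. Of the 32851 windows of this length, 57.5% held CACCC, 7.81% TGANTCA, 4.44% CAAAGTC, 11.2% AGATAA, 7.51% TGACGT and 10.9% TTTATNG, and the median G and C content was 52.7%. A match describes the letters in a window and not a bound site.

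Enpp3, the nucleotide-cleaving ectoenzyme (chromosome 10, 24772406 to 24842823, minus strand), stood at 6.10, 5.78, 7.30 and 2.87 RPKM in SFB 1 to SFB 4, against 5.56, 15.4, 5.41 and 20.5 RPKM in NFF 1 to NFF 4. In Control 2, Control 4 and Control 5 it was at 41.3, 4.50 and 10.5. NFF 2 and NFF 4 stood above all SFB libraries and NFF 1 and NFF 3 among them, so the groups overlapped, and the difference of -0.81 (95% interval -2.07 to 0.44) was not called (limma adjusted p = 0.395).

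Klf4 (chromosome 4, 55527143 to 55532466, minus strand) stood at 29.0, 29.2, 28.7 and 9.89 RPKM in SFB 1 to SFB 4 and at 22.0, 31.6, 22.8 and 47.0 RPKM in NFF 1 to NFF 4. In Control 2, Control 4 and Control 5 it was at 36.6, 24.4 and 37.5. Apart from SFB 4 the SFB libraries were nearly equal and lay inside the NFF range. The difference was -0.39 (95% interval -1.13 to 0.36, limma adjusted p = 0.502), and -0.02 without SFB 4.

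The 3 remaining members differed by less than 0.1 on the log2 scale between SFB and NFF. Ada, the adenosine deaminase (chromosome 2, 163726584 to 163750239, minus strand), was at 43.1, 48.2, 34.4 and 11.9 RPKM in SFB 1 to SFB 4, against 44.6, 23.6, 27.2 and 32.1 RPKM in NFF 1 to NFF 4. Slc28a2, the nucleoside transporter (chromosome 2, 122426477 to 122461137, plus strand), was at 3.70, 5.14, 3.89 and 3.83 RPKM in SFB 1 to SFB 4, against 8.27, 2.62, 3.09 and 3.795 RPKM in NFF 1 to NFF 4. Egfr (chromosome 11, 16752203 to 16918158, plus strand) was at 2.27, 2.94, 3.07 and 3.38 RPKM in SFB 1 to SFB 4, against 2.12, 2.77, 2.81 and 3.25 RPKM in NFF 1 to NFF 4. In all 3 the groups overlapped, with differences of -0.02 for Ada (95% interval -1.48 to 1.45), 0.01 for Slc28a2 (-0.89 to 0.92) and 0.07 for Egfr (-0.28 to 0.41). Only the Egfr interval is narrow, and for Ada and Slc28a2 the data leave differences of more than 0.8 in either direction possible. The limma adjusted p was 0.99 for Ada and Slc28a2 and 0.82 for Egfr.

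**Figure D2:**
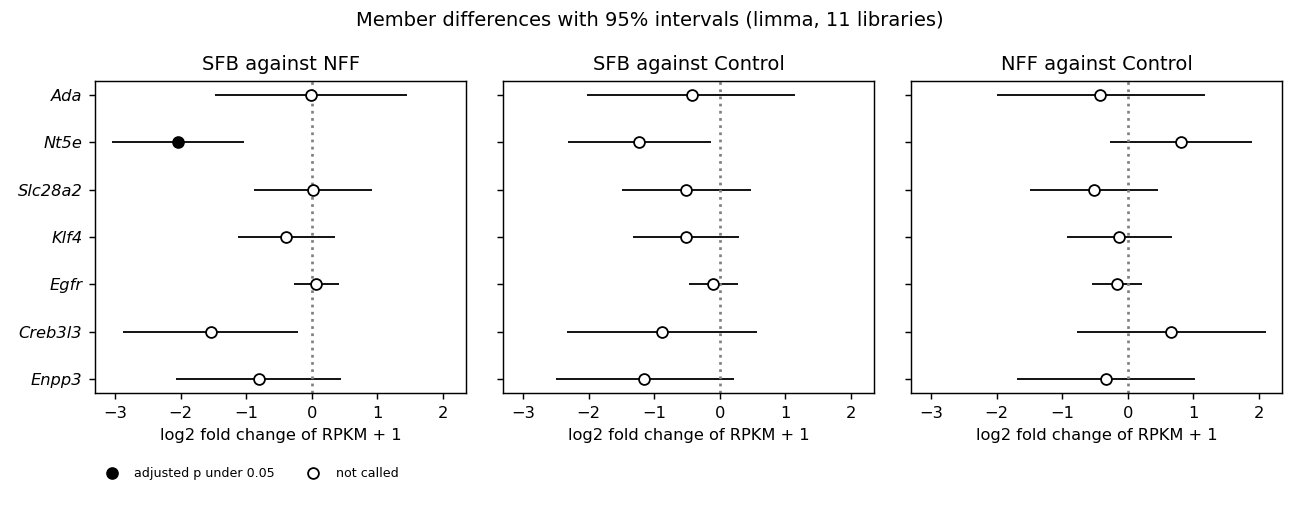
Log2 fold change of RPKM + 1 of each member (points) with its 95% interval (lines) for SFB against NFF, SFB against Control and NFF against Control; filled points passed a limma adjusted p of 0.05. Nt5e in SFB against NFF, at -2.04, is the filled point, and most intervals against Control are wide on both sides of 0.

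Between SFB and Control, which share the chow and differ in colonization, no member was called. All 7 values were below 0, with a median log2 fold change of -0.51, beside 0.01 over all tested genes. Limma called 21 of 10482 genes (0.200%), 13 of them higher (0.124%) and 8 lower (0.0763%), and 1265 genes had an unadjusted p under 0.05 (12.1%). Nt5e had the lowest unadjusted p of the members, at -1.23 (95% interval -2.32 to -0.14, limma adjusted p = 0.353). Enpp3 was at -1.15 (-2.50 to 0.21, adjusted p = 0.49) and Creb3l3 at -0.88 (-2.33 to 0.56, adjusted p = 0.646). Klf4 and Slc28a2 were both at -0.51, Ada at -0.43 and Egfr at -0.10. For no member did the libraries of the groups separate, a pattern that 9.71% of tested genes showed (3.66% higher and 6.05% lower). Without Control 2 the values of Ada (0.61), Slc28a2 (0.08) and Egfr (0.03) turned positive, Nt5e was at -0.56 (adjusted p = 0.774) and Enpp3 at -0.34. The values of Creb3l3 and Klf4 without that library were -0.13 and -0.43.

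Between NFF and Control, which differ in diet, no member was called either. Limma called 0 of 10482 genes (0%), none reaching an adjusted p below 0.303. At an unadjusted p under 0.05 there were 505 genes (4.82%), and weighting the libraries gave 40 calls. Nt5e was at 0.81 (95% interval -0.28 to 1.90, limma adjusted p = 0.896) and Creb3l3 at 0.66 (-0.78 to 2.10, adjusted p = 0.898). The other 5 were below 0, at -0.52 for Slc28a2, -0.42 for Ada, -0.33 for Enpp3, -0.17 for Egfr and -0.13 for Klf4, and the median was -0.17, beside -0.01 over all tested genes. No member separated these groups, a pattern that 9.77% of tested genes showed (5.35% higher and 4.42% lower). Without Control 2, Nt5e was at 1.49 (adjusted p = 0.599) and Creb3l3 at 1.42 (adjusted p = 0.692), and the values of Ada (0.63), Enpp3 (0.47) and Slc28a2 (0.07) turned positive. This comparison and that of SFB with Control share the Control libraries, so their values are not independent.

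Control 2 decided much of the Control level. Ada stood at 180 RPKM in Control 2, 11.4 in Control 4 and 33.7 in Control 5, and Slc28a2 at 15.5, 2.33 and 6.03. Egfr was at 4.01, 2.25 and 3.45. Control 2 exceeded the mean of the other Control libraries 7.99-fold for Ada, 5.51-fold for Enpp3, 5.46-fold for Nt5e, 4.82-fold for Creb3l3 and 3.72-fold for Slc28a2, but 1.41-fold for Egfr and 1.18-fold for Klf4. On the log2(RPKM + 1) scale the excess of Ada was 3.13, and 0.134% of all tested genes had a larger one. Larger excesses than that of Enpp3 were seen in 0.296% of genes, than that of Creb3l3 in 0.401%, than that of Nt5e in 0.525% and than that of Slc28a2 in 0.782%. For Egfr and Klf4 the shares were 11.7% and 17.4%. Control 2 was the highest library for 5 of the 7 members, while 8.92% of all tested genes peaked there. This is the library with the highest proximal and the lowest distal marker level, and the part of that in the member levels was not tested.

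At the other end, SFB 4 was the lowest library for Nt5e, Klf4, Creb3l3 and Enpp3, and Control 4 for Ada and Slc28a2. Of all tested genes, 16.1% were lowest in SFB 4 and 4.33% in Control 4, while 33.3% were highest in SFB 4. Slc28a2, at 3.83 RPKM, and Egfr, at 3.38 RPKM, were not low in SFB 4, and this was the highest Egfr value outside Control. SFB 4 and Control 4 also had the highest crypt and proliferation marker levels, at 4.30 and 3.49.

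The members did not vary as 1 block. Over the 11 libraries Pearson's r of log2(RPKM + 1) between pairs of members ran from 0.07 to 0.89, with a median of 0.55 over 21 pairs. These are descriptions of libraries that share groups and of which Control 2 and SFB 4 lie at the ends. The highest were Nt5e with Creb3l3 (0.89), Ada with Slc28a2 (0.85) and Nt5e with Enpp3 (0.79), and the lowest were those of Egfr with Creb3l3 (0.07) and with Nt5e (0.14). Without Control 2 the median was 0.34 over 10 libraries. Nt5e with Creb3l3 then stood at 0.86, Klf4 with Enpp3 at 0.84 and Nt5e with Enpp3 at 0.76, but Ada with Slc28a2 at 0.62 and Ada with Nt5e at 0.38. Without Control 2 and SFB 4, Nt5e with Creb3l3 was still at 0.86, whereas Klf4 with Creb3l3 was at 0.26, against 0.76 in all libraries. The enzymes of successive steps, Nt5e and Ada, were at 0.55 in all 11 libraries, at 0.89 for deviations from the group means and at 0.09 without Control 2 and SFB 4. Ada with Creb3l3 was likewise at 0.74, 0.92 and 0.43, and Nt5e with Creb3l3 at 0.89, 0.85 and 0.86.

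**Figure D3:**
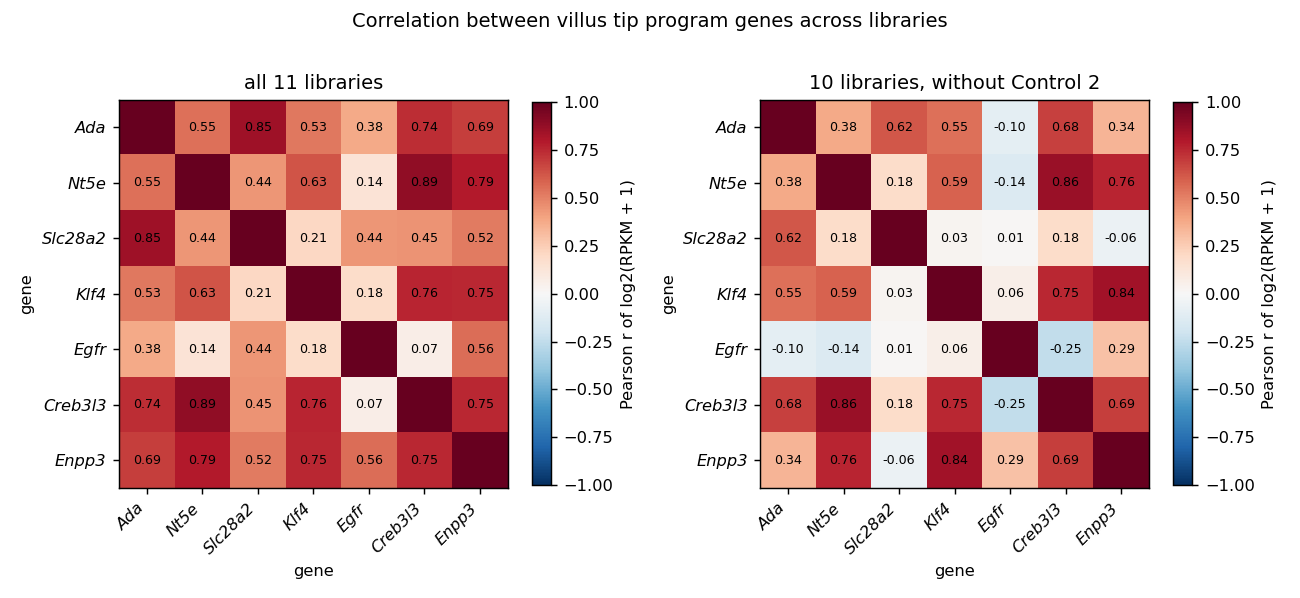
Pearson r of log2(RPKM + 1) between members across all 11 libraries (left) and across 10 libraries without Control 2 (right); red is positive and blue negative. Nt5e, Creb3l3, Enpp3 and Klf4 keep their positive values on the right, while the values of Slc28a2 and Egfr with most other members move to near or below 0.

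Levels of other villus and lineage markers moved with some members. Creb3l3 had an r of 0.97 with the mean level of the mid villus absorptive genes, 0.87 with the other villus tip genes, -0.61 with villus bottom genes and -0.95 with crypt and proliferation markers over 11 libraries. Nt5e was at 0.79, 0.70, -0.78 and -0.90 with the same lists, and at 0.86 with tuft cell markers, where Creb3l3 was at 0.76. With enteroendocrine markers Enpp3 was at 0.86, Creb3l3 at 0.82, Nt5e at 0.81 and Klf4 at 0.80. Ada, Egfr and Slc28a2 were at 0.52, 0.32 and 0.30 with that list. Without Control 2 the value of Nt5e with villus bottom genes was -0.97. Klf4 had its highest value with goblet cell markers, 0.83, close to its 0.80 with the other villus tip genes. Without Control 2, Klf4 was at 0.83 with proximal markers and at 0.82 with goblet cell markers and the other villus tip genes. Ada had its highest value with proximal markers, 0.88, close to its 0.86 with the other villus tip genes. Without Control 2 these values of Ada were 0.70 and 0.83, and that with the other villus tip genes was its highest. Over all 11 libraries Egfr stayed between -0.56 and 0.32 with each of the 10 marker lists compared. Creb3l3 with distal markers was at 0.13 in all libraries and 0.96 without Control 2.

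Between SFB and NFF the mean levels of some of these lists separated the groups, as Nt5e and Creb3l3 did, and others overlapped. Mean crypt and proliferation marker levels, of which 16 of 17 were measured, were 2.52 to 4.30 in SFB and 1.88 to 2.37 in NFF. The tuft cell markers, 12 of 14 measured, were at 1.02 to 2.67 in SFB and 3.65 to 4.37 in NFF, and all 12 tested fell in SFB, among them the cation channel gene Trpm5 (-2.67, limma adjusted p = 0.0022), Rgs13 (-2.67, adjusted p = 0.00289) and Avil (-2.49, adjusted p = 0.0022). With single libraries left out, 11 or 12 of the 12 were called. Their summed level was 14.6 to 87.3 RPKM in SFB and 192 to 354 in NFF. Mid villus absorptive genes, all 13 measured, were at 5.45 to 7.11 in SFB and 7.12 to 7.37 in NFF, and villus bottom genes, all 10 measured, at 7.66 to 7.88 and 6.68 to 7.25. The other villus tip genes, the list most like the members, overlapped at 5.85 to 7.04 in SFB and 6.67 to 7.01 in NFF, and so did goblet cell markers at 7.05 to 8.16 and 7.65 to 9.19. Distal small intestine markers, 10 of 14 measured, were at 6.22 to 7.77 in SFB and 7.85 to 7.91 in NFF. On the crypt, tuft cell, mid villus, villus bottom and distal lists SFB and NFF did not overlap. The part of these lists in the Nt5e and Creb3l3 differences was not tested.

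**Figure D4:**
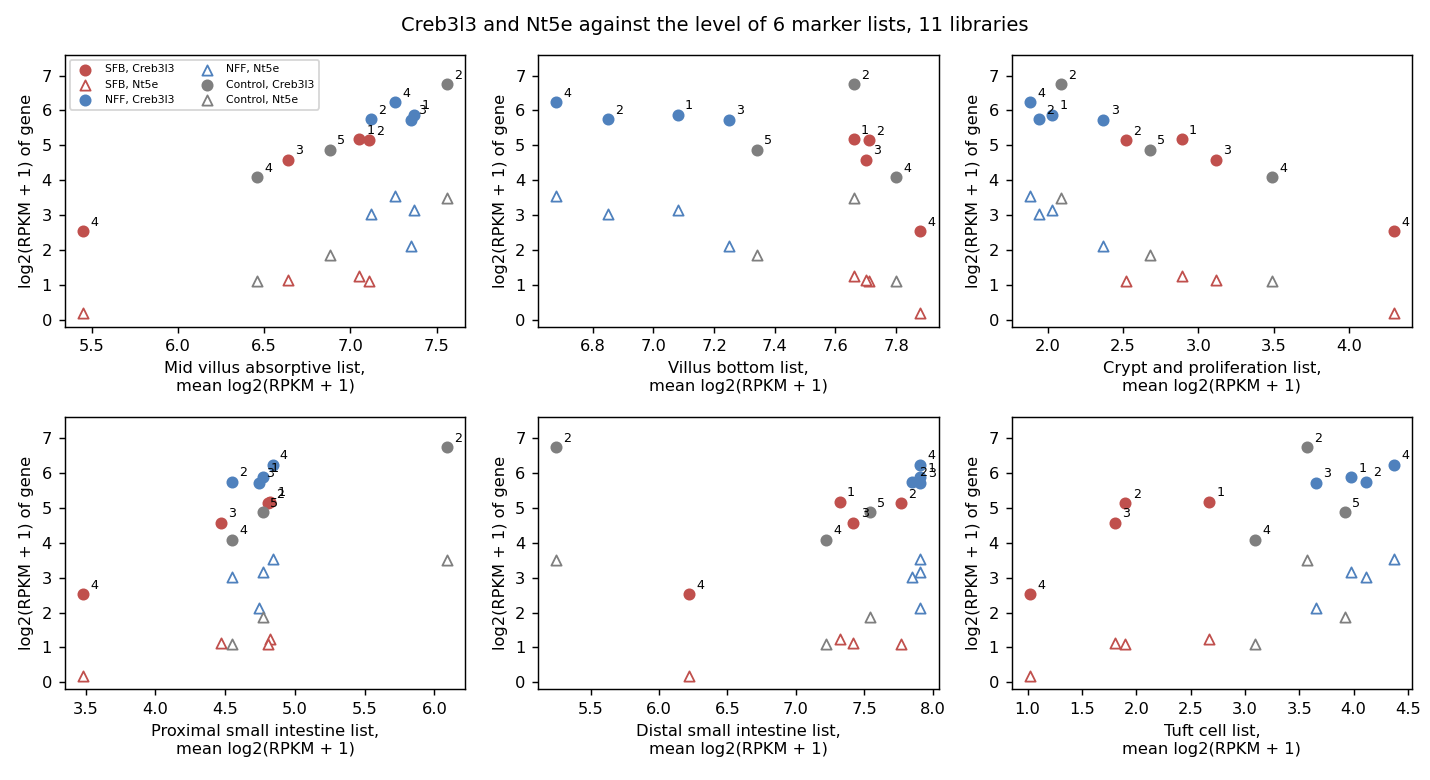
Log2(RPKM + 1) of Creb3l3 (filled circles, numbered by library) and Nt5e (open triangles) in 11 libraries against the mean log2(RPKM + 1) of 6 marker lists; red is SFB, blue NFF and grey Control. Both genes are mostly higher where crypt and villus bottom markers are lower. Control 2 departs from this on the villus bottom list, with high values of both genes at a level of 7.66, and stands apart on the proximal and distal lists.

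By the likeness of their pattern over the 11 libraries, the members had mostly separate nearest genes, among non-member genes with a mean of at least 3 RPKM. Closest to Creb3l3 were Leap2, an antimicrobial peptide gene whose product also blocks the ghrelin receptor, Cyp2d22, a cytochrome P450, and Slc5a4a, a gene of the sodium-glucose cotransporter family, each with an r of 0.98. Closest to Nt5e were Prnp, the prion protein gene (0.96), Id2, an inhibitor of DNA binding induced by BMP signals (0.95), and Chga, a granin of enteroendocrine cells (0.95). Closest to Ada were Ehbp1l1, which encodes an EH domain binding protein (0.98), Papss2, a synthetase of the sulfate donor (0.97), and Mme, the peptidase neprilysin (0.97). Closest to Klf4 were Ptprr, a tyrosine phosphatase (0.96), the microRNA gene Mir24-2 (0.96) and Zg16, a goblet cell lectin (0.95). For Enpp3 they were Tubb2b, a tubulin, and Dcxr, a carbonyl reductase, at 0.95, and for Egfr Abcc3, an efflux transporter, at 0.89. Closest to Slc28a2 were Sec24d, a coat protein of vesicles leaving the endoplasmic reticulum (0.83), Ehbp1l1 (0.83), also among the nearest of Ada, and Zbed5 (0.82), and without Control 2 these stood at 0.54, 0.59 and 0.48. Closest to the mean of the 7 z-scores were Tubb2b and Cidec, a lipid droplet protein gene (0.94 each), then Apoa4, the tip apolipoprotein, Mafk and Ceacam18 (0.93 each).

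Other genes of the purine pathway mostly did not pass the test. Of 35 listed, 25 were measured and 24 tested, and 1 was called, between SFB and NFF, where the median was -0.10, beside 0.02 over all tested genes. Slc28a3, a concentrative transporter of purine and pyrimidine nucleosides, rose to 11.9 ± 3.63 RPKM in SFB, against 4.91 ± 1.15 in NFF (SD, n = 4 each), a log2 difference of 1.11 ± 0.23 (SE; limma adjusted p = 0.0181). Its call was lost without NFF 2 (1.13, adjusted p = 0.0536) or NFF 4 (0.95, adjusted p = 0.0572). Slc28a1, the family member for pyrimidine nucleosides, was at 3.49 ± 2.27 RPKM in SFB and 12.3 ± 3.17 in NFF, a difference of -1.71 that was not called (adjusted p = 0.0506). In SFB against Control Slc28a1 was at -2.34 (adjusted p = 0.0852). Xdh, the xanthine oxidoreductase of the last steps to uric acid, was at 1.09 between SFB and NFF (adjusted p = 0.0696). The 3 concentrative transporters thus gave values of -1.71, 0.01 and 1.11 for Slc28a1, Slc28a2 and Slc28a3.

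Slc28a2 has a neighbouring copy on the same chromosome, Slc28a2b, and 51.0% of the 31-base words of its longest coding transcript also occur in transcripts of that copy. Reads could therefore have been split between them by the authors' counting, and the values of Slc28a2 are uncertain to that extent. Slc28a2b was low, at 0.536 to 2.07 RPKM in SFB, 0.614 to 1.52 in NFF and 0.255 to 2.42 in Control. The library kit does not mark strand, so reads from Egfros, an annotated antisense gene inside Egfr, cannot be told apart from those of Egfr.

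Among the 7 ligands of EGFR, 6 were measured and 5 tested, and none was called in any comparison. Those of lowest unadjusted p between SFB and NFF were Btc, betacellulin, at 0.825 ± 0.0722 RPKM in SFB and 1.83 ± 0.642 in NFF (-0.60, limma adjusted p = 0.0701), and Ereg, epiregulin, at 1.99 ± 0.854 and 4.28 ± 0.971 RPKM (-0.84, adjusted p = 0.0973; SD, n = 4 each). In Control, Btc was at 1.78 ± 0.656 RPKM, nearer to NFF, and Ereg at 2.34 ± 1.39, nearer to SFB (SD, n = 3). Of 24 ERBB partners, adaptors and inhibitors 20 were tested, and between SFB and NFF 11 were below 0 and 9 above. In that comparison 2 were called, both lower in SFB, to be read against the 7.34% of all tested genes called. Spry1, Sprouty 1, fell to 1.73 ± 0.272 RPKM in SFB, against 7.69 ± 5.17 in NFF (-1.48 ± 0.34 SE; limma adjusted p = 0.026). Cblb, a ubiquitin ligase, fell to 1.01 ± 0.214 RPKM in SFB, against 1.75 ± 0.242 in NFF (-0.45, adjusted p = 0.0418). The Spry1 call was lost without NFF 2 (-1.34), NFF 4 (-1.14), SFB 1 (-1.50) or SFB 3 (-1.54), with adjusted p values up to 0.0871, and that of Cblb without any of 9 single libraries, all but SFB 4 and Control 2 (-0.50 to -0.38).

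Of the CREB3 family, its activating proteases and lipid targets of CREB3L3, 14 of 17 were tested. Ppara, the fatty acid receptor that CREB3L3 works with in mouse liver, fell to 5.35 ± 0.479 RPKM in SFB, against 8.68 ± 1.29 in NFF (SD, n = 4 each; -0.60 ± 0.12 SE, limma adjusted p = 0.0135), a call lost without NFF 2 (-0.53, adjusted p = 0.0545). Ppara was the 1 member of the list called, to be read against the 7.34% of all tested genes called in that comparison. Its Control mean, 6.10 ± 0.532 RPKM (SD, n = 3), was nearer to SFB than to NFF. Apoa4, a target and a tip marker itself, was at 91.2 ± 66.6 RPKM in SFB and 198 ± 59.8 in NFF (-1.51, adjusted p = 0.356), and at 2190 RPKM in Control 2, against 54.8 in the lowest Control library.

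Among other listed regulators of the villus axis, 3 BMP pathway genes were called between SFB and NFF, 2 higher and 1 lower. They are to be read against the 7.34% of all tested genes called in that comparison. Of 13 further KLF genes 11 were tested and none was called, with 10 of 11 below 0 between SFB and NFF and a median of -0.21. The lowest unadjusted p belonged to Klf10 (-0.43, limma adjusted p = 0.108) and Klf15 (-0.54, adjusted p = 0.131). None of 18 enterocyte transcription factors was called either, and the lowest unadjusted p belonged to Prdm1 (0.57, adjusted p = 0.0891), a repressor of the immature intestine, and Atoh1 (-1.06, adjusted p = 0.122), the secretory lineage factor. Of 16 tested BMP pathway genes, the signal that is known to rise towards the tip, 3 were called between SFB and NFF. Smad1, a BMP signal transducer, rose to 20.4 ± 2.01 RPKM in SFB, against 14.1 ± 0.834 in NFF (SD, n = 4 each; 0.50, adjusted p = 0.0171), and Smad4, its common partner, rose to 32.6 ± 2.94 against 21.1 ± 5.10 (0.63, adjusted p = 0.0418). Id2, a BMP target, fell to 15.1 ± 3.13 RPKM in SFB, against 35.1 ± 12.4 in NFF (-1.14, adjusted p = 0.0403). The Smad1 call was lost without NFF 2 (0.48) or NFF 4 (0.47), and that of Smad4 without any of 8 single libraries, all but NFF 1, Control 2 and Control 5 (0.49 to 0.71). The Id2 call was lost without any of 9 single libraries, all but Control 2 and Control 4 (-1.24 to -0.92).

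None of the 12 other villus tip genes was called in any comparison, with medians of -0.30 between SFB and NFF, -0.31 between SFB and Control and -0.13 between NFF and Control. Their lowest unadjusted p between SFB and NFF belonged to Cdhr5, a microvillus protocadherin (-0.40, limma adjusted p = 0.278), and Apoa4. Without SFB 4 the median between SFB and NFF was -0.08, and without NFF 4 it was -0.12. Of the 13 mid villus genes, 12 were below 0 between SFB and NFF, with a median of -0.52, or -0.09 without SFB 4, and 1 was called. Sis, sucrase-isomaltase, was at 155 ± 59.7 RPKM in SFB, against 357 ± 73.7 in NFF (SD, n = 4 each; -1.27, limma adjusted p = 0.0305), a call lost without any single NFF library or SFB 3 (-1.40 to -1.16). Its Control mean, 197 ± 58.4 RPKM (SD, n = 3), was nearer to SFB than to NFF. Of the 10 villus bottom genes 2 rose, the scavenger receptor gene Dmbt1 (2.96, adjusted p = 0.0042) and the lectin gene Reg3g (1.50, adjusted p = 0.0186). The Reg3g call was lost without NFF 2 (1.36), NFF 4 (1.39) or SFB 3 (1.34). The counts of these lists between SFB and NFF are to be read against the 7.34% of all tested genes called there.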

How the data were processed

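RNA from sorted small-intestinal epithelial cells was made into libraries with the SMART-seq v4 and NexteraXT kits, which mark neither strand nor molecule, per the labels' protocols. STAR and the mm10 build are named per the submitters' processing notes; no source used here names the counting step. The authors deposited 1 table of RPKM values for 11366 genes in 11 libraries, with 5 zeros. Reads behind the values could not be recovered, since at most 6.34% of low values fell in 1 ratio step between libraries, so depth and intervals from counting are unknown. No per-library column was left unused, and 15 symbols that had been turned into dates were restored.

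Genes with at least 1 RPKM in at least 3 libraries were kept, which left 10482 and removed 884. All 7 members passed. Values were put on the log2(RPKM + 1) scale and fitted with limma 3.58.1 in R 4.3.3, with 1 mean per group over 11 libraries, a trend in the variance prior and 8 residual degrees of freedom. P-values are two-sided and adjusted by Benjamini-Hochberg over all tested genes, and a gene was called at an adjusted p under 0.05. Ranges after ± are SD or, where stated, SE. The scripts were tested on simulated data. Coordinates are those of GENCODE M21 on GRCm38, and promoter windows and their motif counts come from RefSeq GRCm38.p6. There were 23 alternatives: other pseudocounts, filters, scalings, variance settings and library weights, the 2 groups alone, a replicate block, each library left out, and Control 2, SFB 2 and SFB 4 left out together.

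The members and the 20 gene lists were chosen with earlier results of these data known. From each list up to 4 called genes of largest change were named, or, in a list with no call, up to 2 with the smallest unadjusted p. Slc28a1 and Xdh fall outside this and were chosen after their values were seen. A gene that the rule selects is not reported here. Genes of like pattern are the 3 non-member genes of highest Pearson r per member, and 5 for the mean of the members, among those with a mean of at least 3 RPKM.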

Additional observations from a re-analysis of the deposited data

Results flagged for a closer look

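Within the 4 SFB libraries, Klf4 in SFB 4 stood at 9.89 RPKM, far below the 28.7 to 29.2 RPKM of the others, and its gap to the nearest library was 0.972 of the group's range. Slc28a2 in SFB 2 stood at 5.14 RPKM, above the 3.70 to 3.89 RPKM of the others, with a gap of 0.872 of the range. The limit for 4 values is 0.829, and 14 sets of 4 libraries were examined. Chance passes this limit in about 1 of 20 sets. The difference of Klf4 between SFB and NFF was -0.39 with SFB 4 and -0.02 without it.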

How the results depend on the processing

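Of 483 recomputed member values, 444 kept their direction and side of the threshold, 31 turned round, 5 lost a call and 3 gained one; where no cause is named, the cause was not tested. The Nt5e difference between SFB and NFF stayed below 0 in all 23 alternatives, between -2.97 (pseudocount 0.1) and -1.51 (library weights), with limma adjusted p between 0.000262 and 0.0804. Members called there numbered 2 with library weights, 2 without Control 2, SFB 2 and SFB 4, and 0 to 1 with single libraries left out. Library weights also called 1 member, Egfr (-0.37, limma adjusted p = 0.0425), between SFB and Control.

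Genes called between NFF and Control numbered 40 with library weights, 1 with these groups alone, 22 without the 3 libraries and 0 to 8 with single libraries left out, the highest without SFB 4. Between SFB and Control they numbered 1948, 1, 112 and 7 to 94 in the same order, the lowest without SFB 2 and the highest without SFB 4. Between SFB and NFF they numbered 4720 with library weights, 1173 with quantile normalization and 242 to 1000 with single libraries left out, the lowest without NFF 2. The weights gave SFB 1 22.14 and the other libraries 0.15 to 2.49, and their estimation stopped before it converged.

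Correlations of deviations between same-numbered libraries were 0.03, -0.17, -0.30 and -0.27 for SFB and NFF (numbers 1 to 4), 0.20 and 0.67 for SFB and Control (numbers 2 and 4), and -0.17 and -0.28 for NFF and Control. The pair of SFB 4 and Control 4 had the highest value of all pairs between groups, but most were below 0.1, so the numbers were not taken as pairs. With the number as a block, genes called were 0 between SFB and Control and 335 between SFB and NFF, members called were 0, Nt5e was at -2.04 (limma adjusted p = 0.0531) and Egfr between SFB and Control at 0.05.

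Values that turned round without the 3 libraries were Ada 0.63, Slc28a2 0.07 and Enpp3 0.47 between NFF and Control, Ada 0.93 and Creb3l3 0.40 between SFB and Control, and Ada 0.31, Slc28a2 -0.08 and Egfr -0.03 between SFB and NFF. With library weights they were Ada 0.34 and Creb3l3 0.22 between SFB and Control, and Ada 0.48, Slc28a2 -0.08, Klf4 0.14 and Egfr -0.13 between SFB and NFF. Slc28a2 between SFB and NFF was at 0 with median ratio scaling and -0.01 with quantile normalization. With single libraries left out, the ranges that crossed 0 between NFF and Control were -1.31 to 0.63 for Ada, -1.09 to 0.07 for Slc28a2, -0.35 to 0.01 for Klf4 and -1 to 0.47 for Enpp3. Between SFB and Control they were -1.33 to 0.61 for Ada, -1.08 to 0.08 for Slc28a2 and -0.28 to 0.03 for Egfr, and between SFB and NFF -0.23 to 0.41 for Ada, -0.15 to 0.30 for Slc28a2 and -0.02 to 0.15 for Egfr.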

Other observations

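The remaining marker lists gave the following counts between SFB and NFF, with no call in the other comparisons. Of all tested genes, 7.34% were called between SFB and NFF. P-values are from limma, adjusted over all tested genes. Of the crypt and proliferation markers 3 of 16 were called higher and 1 lower (median 1.25). Olfm4, a stem cell marker, rose to 44.7 ± 38.8 RPKM in SFB, against 3.83 ± 2.01 in NFF (SD, n = 4 each; 3.00, limma adjusted p = 0.0114), a call kept without any single library. The cycle genes Ccnb2 (1.66, adjusted p = 0.0277) and Birc5 (1.58, adjusted p = 0.0224) rose, and Sox9, a crypt transcription factor, fell by 0.74 (adjusted p = 0.0371). The calls of Ccnb2 and Birc5 were lost without NFF 1, NFF 2 or NFF 4, that of Ccnb2 also without SFB 3, and that of Sox9 without any NFF library, SFB 1 or SFB 3, with values of 1.52 to 1.73, 1.51 to 1.59 and -0.80 to -0.72.

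All 10 Paneth cell markers were below 0 (median -1.90) and 1 was called, Pnliprp2, a lipase (-2.54, limma adjusted p = 0.0389). Library SFB 2 carried much of that median: its mean Paneth marker level was 4.18 on the log2(RPKM + 1) scale, against 8.41 to 9.26 in the other SFB libraries and 9.12 to 9.97 in NFF, and without it the median was -0.47 with 8 of 10 below 0. The Pnliprp2 call was lost without any NFF library, SFB 3 or SFB 4 (-2.74 to -2.33). All 10 goblet cell markers were below 0 (median -0.92, or -0.63 without NFF 4) and none was called, with the lowest unadjusted p for Fcgbp (-1.36, adjusted p = 0.0697) and Ern2 (-1.15, adjusted p = 0.0732). Without NFF 1, 3 of them were called.

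Of the 10 tested enteroendocrine markers 9 were below 0 (median -1.27, or -0.79 without NFF 4) and 2 fell, the granin genes Chgb (-2.09, limma adjusted p = 0.0368) and Chga (-1.87, adjusted p = 0.0455), both lost without any NFF library, SFB 1, SFB 3 or SFB 4 (-2.31 to -1.91 and -2.07 to -1.65). Of the distal markers 2 of 10 were called lower in SFB than in NFF (median -0.50, or -0.25 without SFB 4). They were Cubn, the receptor of intrinsic factor (-1.93, limma adjusted p = 0.0368), and Guca2a, guanylin (-1.20, adjusted p = 0.0437). Mean Cubn was 6.15 RPKM in SFB, 22.5 in NFF and 7.11 in Control, and mean Guca2a was 872, 1960 and 1030. For both genes the Control mean was thus nearer to SFB than to NFF. The Cubn call was lost without any NFF library, SFB 2 or SFB 3 (-2.09 to -1.87), and that of Guca2a without any NFF library, SFB 1, SFB 3, SFB 4 or Control 5 (-1.27 to -0.99). None of 11 proximal markers was called (median -0.43, or -0.03 without SFB 4), and the lowest unadjusted p was that of Ces2e (-0.68, adjusted p = 0.075) and Lct, lactase (-2.10, adjusted p = 0.0774). Of the 3 tested leukocyte markers none was called, 2 were below 0 and 1 was above. Those below were Lyz2 (-1.50, limma adjusted p = 0.105) and Ptprc (-0.69, adjusted p = 0.107). The stromal marker Pdgfrb gave -0.22 (adjusted p = 0.495).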
